A study of Mus musculus with 6 samples.

Results

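Glycolysis and the response to low oxygen were followed through 33 genes in organoids of mouse pancreatic tumours. The genes were picked by symbol from 53379 annotated genes. Of these, 19 carry out or regulate glucose uptake, glycolysis and lactate export, and the other 14 belong to the pathway of hypoxia-inducible factor (HIF). All 33 were found, and all 33 were among the 14537 genes that passed the filter on low counts. Total RNA was sequenced from organoids, which here are epithelial cells of the tumour grown in a basement membrane gel. The tumours arose in KPC mice of the C57/Bl6 strain, in which the Pdx1 promoter, active in the pancreatic epithelium, drives the Cre recombinase that switches on mutant Trp53. All groups shared the Pdx1-Cre allele. The 3 libraries called heterozygous here had the genotype Trp53LSLR172H/+, and the 3 LOH libraries (loss of heterozygosity) had Trp53LSLR172H/-, so that no wild-type copy of Trp53 was left by the label. Each group held 1 library from each of 3 organoid lines, numbered 6, 23 and 34, and values are given in that order throughout. A suffix, Nut, closes the description of each LOH library; the labels do not define it, and it cannot be told apart from genotype. The labels do not say whether libraries came from separate cultures, so p-values measure the spread between these libraries, which may be partly technical. They also give neither the age of the mice nor the oxygen level of the cultures.

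Glycolysis splits glucose into pyruvate. Glucose enters through transporters, is phosphorylated by hexokinase, committed by phosphofructokinase and cleaved by aldolase, and pyruvate kinase makes the final pyruvate. Lactate dehydrogenase turns pyruvate into lactate, which leaves through monocarboxylate transporters. HIF is a pair of subunits, an alpha subunit such as HIF1A and a beta subunit such as ARNT. Prolyl hydroxylases of the EGLN family mark the alpha subunit for destruction when oxygen is present, so its amount is set mainly at the protein level. When oxygen is scarce the pair binds DNA at a short core motif and switches on genes for glucose use, vessel growth, pH control and mitochondrial turnover. Pancreatic ductal tumours are dense and poorly perfused, and many glycolysis genes are HIF targets as well.

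Among the glycolysis genes, 2 of 19 rose in LOH organoids and none fell. They were Slc16a3, which encodes the lactate exporter MCT4, with a log2 fold change of 2.65 ± 0.49 (SE), and Pfkm, the muscle form of phosphofructokinase, with 1.52 ± 0.19. A log2 value of 1 is a 2-fold difference. Among the HIF pathway genes, 1 of 14 rose, Mxi1, an antagonist of Myc, with 1.24 ± 0.27, and none fell. These calls rest on the quasi-likelihood test of edgeR with Benjamini-Hochberg adjustment over all genes and a threshold of 0.05. By the same test 5.21% of all genes tested changed, 3.55% upwards and 1.66% downwards.

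Most HIF pathway genes lay higher in LOH without passing the adjusted threshold. An unadjusted p under 0.05 was found for 11 of 14 HIF pathway genes, 10 higher and 1 lower in LOH, and for 3 of 19 glycolysis genes, all higher. The share among all genes tested was 25.3%. The median log2 fold change was 1.18 over the HIF pathway genes, 0.33 over the glycolysis genes and 0.06 over all genes tested. Fold changes were above 0 for 13 of 14 HIF pathway genes and for 15 of 19 glycolysis genes, of which 10 were below 0 on the TPM scale described below. With 1 library or 1 line left out, the number of HIF pathway genes with an unadjusted p under 0.05 ran from 3 to 12. It was 4 without heterozygous library 6, 3 without heterozygous library 34 and 3 without line 34. Among all genes these fits had 2966 of 15113, 2272 of 15139 and 2097 of 14348 such genes. The HIF pathway count was 6 without LOH library 23 or 34 and 12 without heterozygous library 23. On log2(TPM + 1) it was 7, against 4459 of 11918 genes.

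With the organoid line as a block, edgeR called 0 of 19 glycolysis genes and 0 of 14 HIF pathway genes, against 1.47% of all genes tested (1.22% rose and 0.248% fell). In that fit 3 and 11 of them had an unadjusted p under 0.05, against 20% of all genes, and DESeq2 without a block called 3 and 8, against 14.1% of all genes it tested. On the log2(TPM + 1) scale the median of all genes moved by -0.42, and that of the glycolysis genes was -0.08, which is 0.28 above the median of all genes, against 0.27 in counts.

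**Figure D1:**
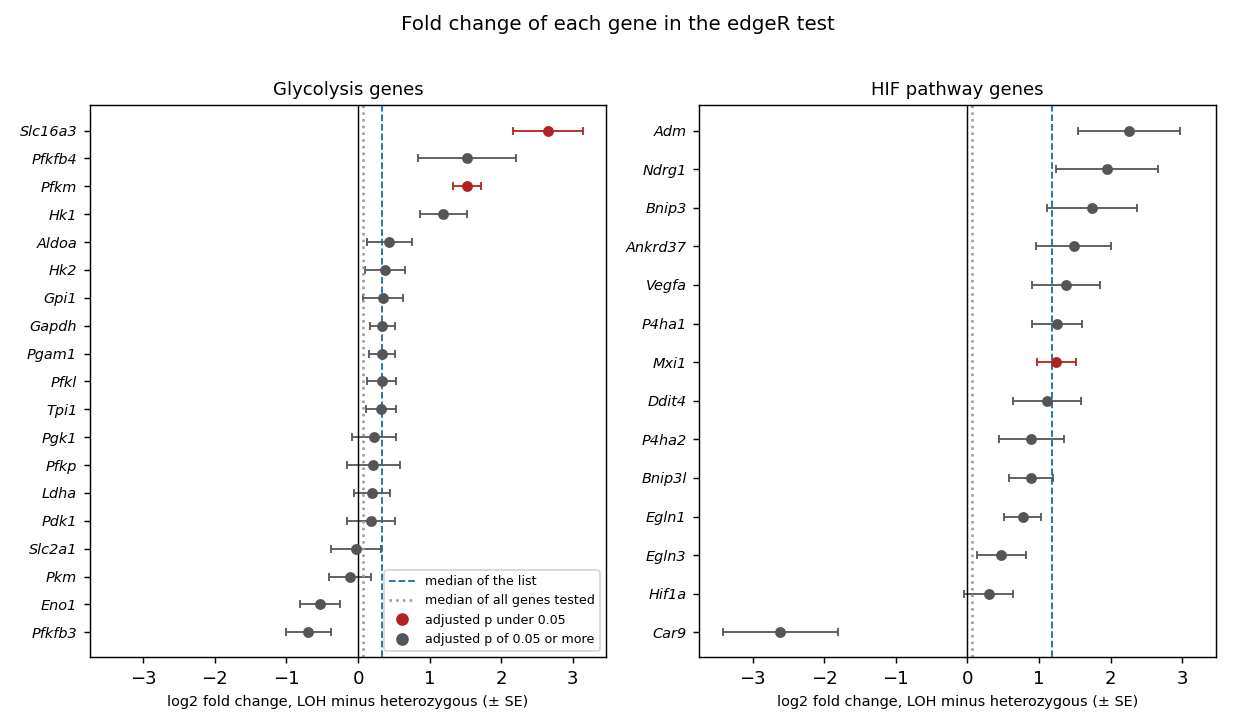
Log2 fold change of each gene (LOH minus heterozygous, ± SE, 3 libraries per group) from the edgeR test, with glycolysis genes on the left and HIF pathway genes on the right. Dashed lines mark the median of each list (0.33 and 1.18) and dotted lines that of all genes tested (0.06). Red points passed an adjusted p of 0.05, namely Slc16a3, Pfkm and Mxi1.

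The libraries held 13680458 to 27917277 expected counts, and 3 counts corresponded to 0.1 to 0.223 CPM, the unit of level used here, which is the count scaled to library size. Genes of the protein-coding table took 67.9% to 73.3% of the counts in heterozygous and 61.4% to 67.2% in LOH libraries. Trp53 itself had 80.0 ± 5.61 CPM (SD, n = 3) in heterozygous and 57.8 ± 13.9 in LOH libraries (adjusted p = 0.227, edgeR), and its targets Mdm2 and Ccng1 fell in LOH (adjusted p = 0.0284 and 0.0314, and 0.0905 and 0.0573 with the line as a block). Cdkn1a, a further target, was tested and did not pass, with a fold change below 0. All 8 epithelial markers passed the filter, with a summed level of 5247 to 6084 CPM in heterozygous and 5176 to 11408 CPM in LOH libraries. None of 7 fibroblast, 4 endothelial or 5 erythroid markers passed it. Summed levels of fibroblast markers were 0 to 0.067 CPM in heterozygous and 0.466 to 0.873 CPM in LOH libraries, and those of endothelial markers 0.033 to 0.1 and 0.373 to 2.62 CPM. Of 6 leukocyte markers only Cd68 passed, and their sums were 1.93 to 2.27 and 3.09 to 14.8 CPM. Col3a1, Adgre1 and Hbb-bt had no count in any library. The part of these markers and of the protein-coding share in the results was not tested. In bulk RNA, fewer cells of a type and less RNA per cell cannot be told apart.

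The core of the HIF binding motif is ACGTG or GCGTG. Promoter windows of 250 bases upstream of a RefSeq start (mouse build GRCm38.p6) were found for 31 of the 33 genes, 19 in glycolysis and 12 in the HIF pathway. Those of 5 genes are shown, namely the 3 genes that rose, Car9, the HIF target with the lowest fold change, and Ldha, whose window had most matches. Capitals mark ACGTG on either strand (CACGT on the strand shown), and CACGTG holds a match on both.
Slc16a3: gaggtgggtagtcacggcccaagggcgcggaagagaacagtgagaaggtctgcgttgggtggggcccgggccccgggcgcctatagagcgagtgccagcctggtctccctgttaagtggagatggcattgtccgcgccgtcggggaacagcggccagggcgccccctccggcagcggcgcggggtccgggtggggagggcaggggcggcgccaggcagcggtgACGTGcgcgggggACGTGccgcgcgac
Pfkm: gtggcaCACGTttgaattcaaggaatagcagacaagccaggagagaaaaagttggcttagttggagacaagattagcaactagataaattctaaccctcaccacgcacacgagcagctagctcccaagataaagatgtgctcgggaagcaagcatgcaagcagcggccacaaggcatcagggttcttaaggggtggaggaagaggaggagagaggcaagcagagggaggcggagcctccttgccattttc
Mxi1: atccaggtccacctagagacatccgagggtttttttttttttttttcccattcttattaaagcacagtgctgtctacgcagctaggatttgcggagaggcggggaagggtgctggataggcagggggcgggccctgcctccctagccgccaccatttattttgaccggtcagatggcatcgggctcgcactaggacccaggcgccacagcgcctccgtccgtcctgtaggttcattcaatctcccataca
Car9: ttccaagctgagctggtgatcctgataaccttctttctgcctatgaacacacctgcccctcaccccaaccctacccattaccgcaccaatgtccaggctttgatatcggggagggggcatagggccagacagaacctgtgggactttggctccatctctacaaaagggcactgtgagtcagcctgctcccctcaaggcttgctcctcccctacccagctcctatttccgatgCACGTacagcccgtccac
Ldha: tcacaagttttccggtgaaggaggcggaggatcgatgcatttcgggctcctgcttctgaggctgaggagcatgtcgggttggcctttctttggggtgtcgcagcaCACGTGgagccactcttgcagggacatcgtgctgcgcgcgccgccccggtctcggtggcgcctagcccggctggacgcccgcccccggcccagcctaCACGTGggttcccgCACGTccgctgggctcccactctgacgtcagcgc
All 5 lie on the plus strand and are written 5′ to 3′ towards the start site. They cover chr11:120948817-120949066 for Slc16a3, chr15:98108221-98108470 for Pfkm, chr19:53310256-53310505 for Mxi1, chr4:43506776-43507025 for Car9 and chr7:46845554-46845803 for Ldha. The start used was the RefSeq start nearest to that of the gene's most abundant transcript, 5 to 60 bases away for Pfkm, Mxi1, Ldha and Car9 and 587 bases away for Slc16a3. For Slc16a3 the RefSeq start lies downstream of the annotated gene start (chr11:120948480), and for Car9 also (chr4:43506966). The windows of Slc16a3, Pfkm and Ldha lie inside the annotated genes, and so does the match in the Car9 window. The Slc16a3 window held 2 matches, 27 and 14 bases before the start, and Pfkm held 1, at 244 bases. Car9 held 1 at 18 bases, Ldha held 5, of which 4 overlap in pairs, and Mxi1 held none. Several RefSeq windows exist for 10 of the 31 genes, and they can differ. The other 2 windows of Mxi1 held 1 match each, the other window of Ldha none, and those of Pfkm 2, 0 and 0.

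Across the lists, 9 of 12 HIF pathway windows (75.0%) and 9 of 19 glycolysis windows (47.4%) held ACGTG. Counting a gene if any of its windows held ACGTG, these were 11 and 10 genes. Of all 32851 RefSeq promoter windows of that length, 16.6% held it. That rate is per window, so the counts of genes with any match cannot be set against it. It also covers every window, while the list percentages use the window nearest to each gene's most abundant transcript. The windows were not matched for expression or base content, so these percentages are descriptive only. GCGTG was found in 28.2% of all windows, in 7 HIF pathway windows (58.3%) and in 11 glycolysis windows (57.9%). CACGTG, which contains ACGTG, was found in 6.02%, 2 and 2. A match describes these letters and is not a bound site.

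At glucose uptake and the hexokinase step, none of Slc2a1, Hk2 and Hk1 passed the test. Slc2a1 encodes the glucose transporter GLUT1 (chr4:119108711-119137983, plus strand) and made up at least 99.7% of the TPM, a level per transcript length, of Slc2a1 and Slc2a3 in every library. It had 161, 176 and 149 CPM in heterozygous and 89.4, 145 and 242 CPM in LOH libraries. The LOH libraries lay on both sides of the heterozygous ones, and the log2 fold change was -0.03 ± 0.35 (adjusted p = 0.972, edgeR). Hexokinase 2, Hk2 (chr6:82725025-82774454, minus strand), traps glucose in the cell and is the form most often raised in tumours. Its level was 70.1, 74.6 and 52.7 CPM in heterozygous and 87.4, 112 and 56.9 CPM in LOH libraries, with overlapping groups and a fold change of 0.37 ± 0.28 (adjusted p = 0.438).

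Hk1, the widely expressed hexokinase (chr10:62268855-62379908, minus strand), had 55.0, 81.0 and 50.7 CPM in heterozygous and 84.6, 171 and 170.5 CPM in LOH libraries. The lowest LOH library, line 6, lay just above the highest heterozygous one, line 23. The log2 fold change was 1.19 ± 0.33, and the adjusted p of 0.0823 did not pass. It was 0.0210 without LOH library 6 and 0.0163 to 0.413 over the alternatives. Hk1 took 55.1% ± 3.22 (SD, n = 3) of the hexokinase TPM in heterozygous and 67.3% ± 11.3 in LOH libraries, and Hk2 37.9% ± 2.92 and 28.3% ± 11.6. Gpi1, which turns glucose 6-phosphate into fructose 6-phosphate, ran from 301 to 541 CPM over the 6 libraries with overlapping groups (adjusted p = 0.459).

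At phosphofructokinase, the committed step of glycolysis, the muscle form rose while the liver form Pfkl and the platelet form Pfkp did not pass the test. Pfkm (chr15:98092589-98132451, plus strand) had 15.6, 18.5 and 17.7 CPM in heterozygous libraries and 43.2, 48.2 and 57.0 CPM in LOH libraries. The lowest LOH library, line 6, stood at more than 2-fold the highest heterozygous one, line 23. The groups averaged 17.3 ± 1.53 and 49.5 ± 6.96 CPM (SD, n = 3), and the log2 fold change of 1.52 ± 0.19 had an adjusted p of 0.0164 in edgeR and of 0.0539 with the line as a block. Within lines the log2 ratio was 1.47, 1.37 and 1.68. Without any 1 of the heterozygous libraries 6, 23 and 34 the adjusted p was 0.107, 0.0951 and 0.109, in fits that called no gene at all, and it ran from 6.54e-08 to 0.153 over all alternatives. Pfkm overlaps Senp1 on the opposite strand and Gm26513 on its own, and the strand setting of the counting was not stated. Other genes named here also overlap genes on the opposite strand. Among them are Hk1 (Hk1os), Gapdh (Iffo1), Hif1a (Gm15283), Adm (Gm28863), Ankrd37 (Ufsp2 and Lrp2bp), G6pdx (Ikbkg) and Adpgk (Bbs4).

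The rise left Pfkm the smallest of the 3 forms. It took 5.61%, 4.61% and 7.03% of the phosphofructokinase TPM in heterozygous and 12.1%, 10.2% and 14.1% in LOH libraries, and Pfkl took most in every library (59.5% ± 1.48 and 57.9% ± 7.24, SD, n = 3). Pfkl had a log2 fold change of 0.33 ± 0.20 (adjusted p = 0.351) and Pfkp one of 0.21 ± 0.37 (adjusted p = 0.747). Pfkfb3 and Pfkfb4 encode the enzymes that set the main small-molecule activator of phosphofructokinase. Pfkfb3 (chr2:11471433-11554077, minus strand) had 27.4, 25.5 and 12.9 CPM in heterozygous and 11.9, 15.6 and 13.1 CPM in LOH libraries, and heterozygous library 34 lay within the range of the LOH libraries. Pfkfb4 (chr9:108991778-109032228, plus strand) had 4.07, 6.31 and 5.67 CPM in heterozygous and 7.22, 5.59 and 33.2 CPM in LOH libraries, so that its mean difference rested on LOH library 34. Their adjusted p-values were 0.224 and 0.218, with log2 fold changes of -0.69 ± 0.32 and 1.52 ± 0.68, and without LOH library 34 the latter was 0.26 (adjusted p = 0.646, against 0.112 to 0.794 over the alternatives).

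**Figure D2:**
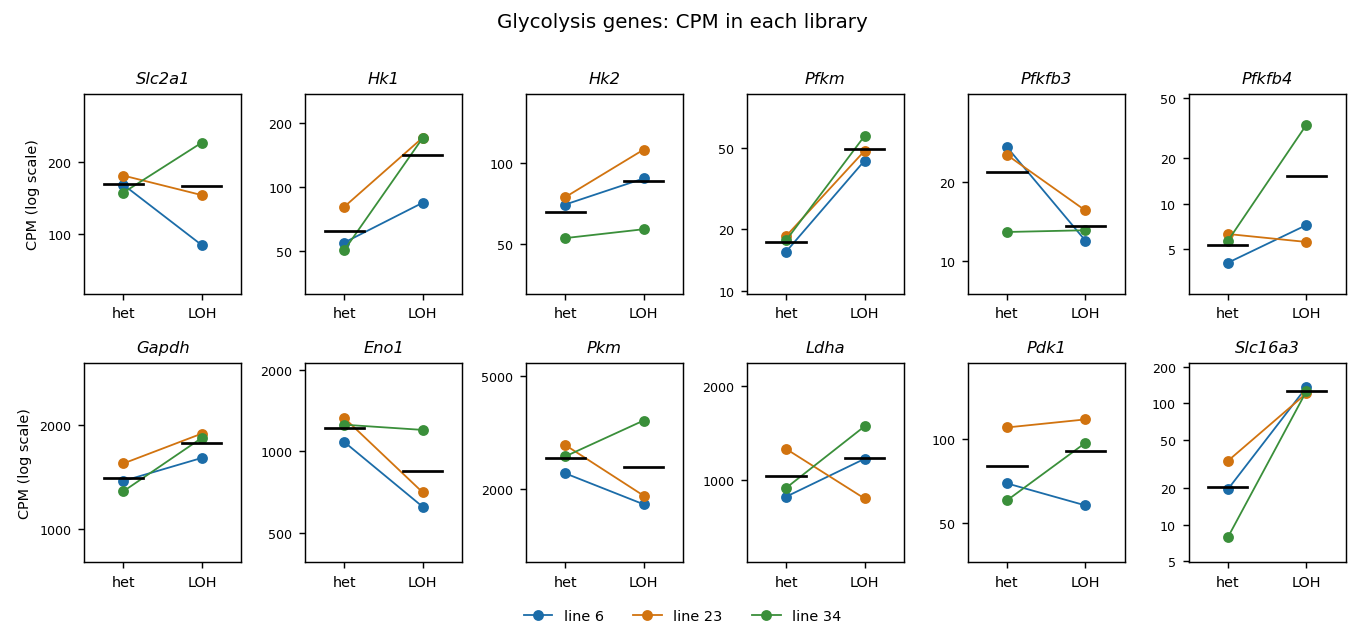
CPM on a log axis for 12 of the 19 glycolysis genes, with 1 point per library, thin lines joining the 2 libraries of an organoid line and black bars at the mean of each group. Slc16a3 and Pfkm separate the groups widely, while Slc2a1, Pkm and Ldha cross between lines.

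In the lower part of the pathway no gene passed the test. Aldoa, Tpi1, Gapdh, Pgk1 and Pgam1, which carry the sugar from cleavage to the substrate of enolase, had log2 fold changes of 0.43, 0.32, 0.34, 0.22 and 0.34, and their adjusted p-values ran from 0.271 to 0.674. Gapdh (chr6:125161715-125166467, minus strand), often used as a reference gene, had 1379, 1548 and 1288 CPM in heterozygous and 1606, 1887 and 1834 CPM in LOH libraries, and the groups did not overlap. Groups without overlap were found for 5 of 19 glycolysis genes, all higher in LOH, and for 32.8% of all genes tested (16.4% higher, 16.5% lower). Those 5 were Hk1, Pfkm, Gapdh, Pgam1 and Slc16a3. Eno1, the enolase, pointed the other way, with 1083, 1329 and 1255 CPM in heterozygous and 625, 706 and 1201 CPM in LOH libraries and a log2 fold change of -0.53 ± 0.28 (adjusted p = 0.275). It lay lower in LOH in all 3 lines, though in line 34 by only -0.06 on the log2 scale. Eno1 passed as lower in LOH with limma on log2(TPM + 1), at -0.98 (adjusted p = 0.0311), and on log2(TPM + 0.1), at -0.98 (0.0332), scales on which 13.7% and 12.5% of all genes were called lower. With library medians removed its adjusted p was 0.176, and over the alternatives it ran from 0.0311 to 0.717. Several of these genes, Gapdh and Pgk1 among them, have processed pseudogenes that can share reads, and Eno1 has the copy Eno1b.

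Pkm (chr9:59656368-59679375, plus strand) encodes pyruvate kinase in a pair of splice forms. The M1 form uses exon 9 and is typical of muscle and brain, and the M2 form uses exon 10 and prevails in proliferating cells and most tumours. The exons are given here because they are what tells the forms apart in the reads. Both lie on the plus strand (GENCODE 21, build GRCm38), M1 at chr9:59675029-59675195 and M2 at chr9:59675568-59675734, and capitals mark the positions where they differ.
Pkm M1 exon: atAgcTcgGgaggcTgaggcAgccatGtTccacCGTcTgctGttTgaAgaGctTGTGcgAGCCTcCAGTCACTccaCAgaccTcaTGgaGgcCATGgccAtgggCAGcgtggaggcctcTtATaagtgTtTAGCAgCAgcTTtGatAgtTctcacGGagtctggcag
Pkm M2 exon: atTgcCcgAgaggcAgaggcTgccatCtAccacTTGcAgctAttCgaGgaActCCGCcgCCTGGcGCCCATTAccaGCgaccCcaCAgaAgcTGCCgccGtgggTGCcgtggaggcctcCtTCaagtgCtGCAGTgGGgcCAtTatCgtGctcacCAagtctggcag
The exons are 167 bases each and differ at 64 positions, an identity of 61.7%. As a gene, Pkm had 2274, 2861 and 2608 CPM in heterozygous and 1768, 1896 and 3490.4 CPM in LOH libraries, with overlapping groups and a log2 fold change of -0.11 ± 0.30 (adjusted p = 0.834, edgeR).

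M2 prevailed in every library, and the M1 share was higher in all 3 LOH libraries than in any heterozygous one. Among expected counts on transcripts that hold either exon, M1 took 4.78%, 4.91% and 5.29% in heterozygous and 11.04%, 9.46% and 11.36% in LOH libraries. The widest 95% Wilson interval of a library ran from 10.7% to 11.4%, and it covers counting error only. The group means were 4.996% ± 0.266 and 10.6% ± 1.02 (SD, n = 3), a difference of 5.62 percentage points. The exact two-sided permutation test gave p = 0.1, the smallest that 3 against 3 libraries allow, and the exact test that flips the sign of each line's difference gave p = 0.25, the smallest that 3 lines allow. In TPM the difference was 6.58 points. As single transcripts, the main M1 transcript (Pkm-202) differed by 1.03 ± 0.34 on the log2 scale (SE, adjusted p = 0.262, edgeR over 36699 transcripts) and the M2 transcript (Pkm-201) -0.17 ± 0.29 (adjusted p = 0.851). Only 0.0272% of all transcripts tested passed the threshold, and none of the 129 tested transcripts of the 33 genes did. The division of reads between transcripts is an estimate by RSEM.

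Past pyruvate, the exporter changed and the enzyme did not pass the test. Ldha (chr7:46841475-46855627, plus strand), which makes lactate, had 881, 1254 and 940.1 CPM in heterozygous and 1165, 870.1 and 1481 CPM in LOH libraries, and lines 6 and 34 moved up while line 23 moved down. Its log2 fold change was 0.19 ± 0.25 (adjusted p = 0.662, edgeR), and it made up 99.6% to 99.9% of the lactate dehydrogenase TPM over the 6 libraries. Pdk1, a kinase that inhibits pyruvate dehydrogenase in mitochondria and is a HIF target, had a fold change of 0.19 ± 0.34 (adjusted p = 0.758).

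Slc16a3 (chr11:120948480-120960868, plus strand), whose promoter window is printed above, had 19.6, 33.5 and 7.88 CPM in heterozygous and 135, 121 and 125 CPM in LOH libraries. The LOH libraries lay within a narrow band, while the heterozygous ones spread widely, with line 34 lowest. The means were 20.3 ± 12.8 and 127 ± 7.46 CPM (SD, n = 3), and the log2 fold change was 2.65 ± 0.49, the highest of the 33 genes (adjusted p = 0.0329, edgeR). With the line as a block the adjusted p was 0.0626. Within lines the log2 ratio was 2.78, 1.84 and 3.98. Leaving out LOH library 23 or 34 raised the adjusted p to 0.0654 and 0.0531, and leaving out heterozygous library 6, 23 or 34 raised it to 0.150, 0.0931 and 0.102, while the log2 fold change stayed between 2.25 and 3.24 in these and the fits without a whole line. The call was also lost without each whole line, and the fit without line 6 still called 1422 of 14727 genes. Over the alternatives as a whole the adjusted p of Slc16a3 ran from 2.42e-06 to 0.150.

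Of the lactate carriers, a different one led in each group. Slc16a1, which encodes the related carrier MCT1, had a log2 fold change of 0.15 ± 0.24 (adjusted p = 0.731). Slc16a3 held 20.4%, 26.7% and 7.11% of the summed TPM of both in heterozygous and 56.8%, 64.6% and 55.0% in LOH libraries. It was thus the minor transcript in each heterozygous library and the major one in each LOH library. The means were 18.1% ± 10.005 and 58.8% ± 5.10 (SD, n = 3), and no test was run on this share, since it restates the change of Slc16a3.

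**Figure D3:**
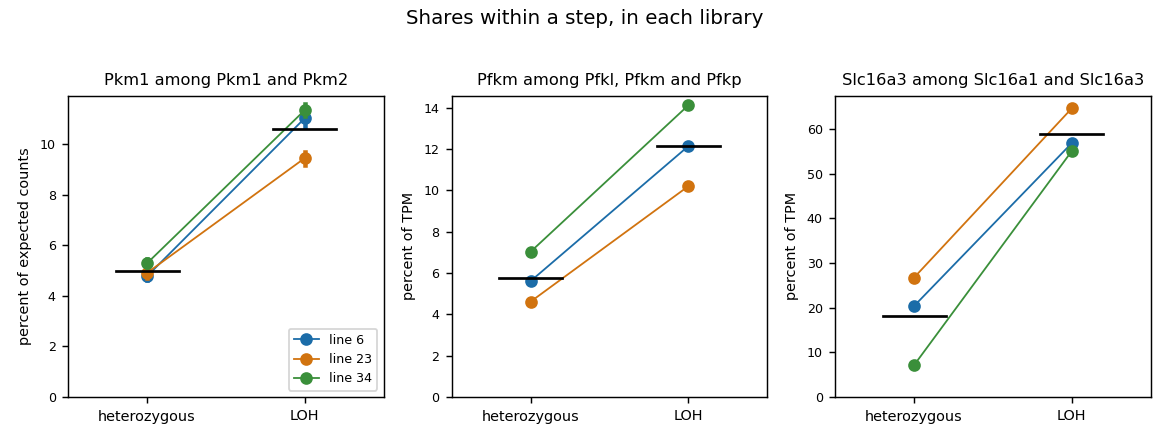
Share in each library, with lines joining the libraries of an organoid line and black bars at the group mean, of Pkm M1 among M1 and M2 counts (vertical bars, 95% Wilson interval), of Pfkm among phosphofructokinase TPM, and of Slc16a3 among Slc16a1 and Slc16a3 TPM. In all 3 panels each LOH library lies above each heterozygous one, for Slc16a3 at 55.0% or more against 26.7% or less.

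Of Hif1a, Egln1 and Egln3, the regulators of HIF activity among the 14 genes, none passed the test. The subunits Epas1 and Arnt2, which did, belong to the wider list described at the end. Hif1a (chr12:73901375-73947530, plus strand) had 137, 73.0 and 103 CPM in heterozygous and 84.1, 124 and 177 CPM in LOH libraries. Line 6 moved down and lines 23 and 34 moved up, and the log2 fold change was 0.30 ± 0.34 (adjusted p = 0.609, edgeR). Egln1, the main oxygen sensor among the prolyl hydroxylases (chr8:124908587-124949324, minus strand), had 37.5, 41.2 and 34.1 CPM in heterozygous and 57.4, 86.9 and 48.1 CPM in LOH libraries. Its groups did not overlap, and its fold change of 0.77 ± 0.26 had an adjusted p of 0.119. Egln3, a prolyl hydroxylase that HIF itself induces, had a fold change of 0.47 ± 0.34 (adjusted p = 0.414).

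Of the secreted targets, both Vegfa and Adm were higher in LOH in every line, and neither passed the test. Vegfa, the main growth factor of blood vessels (chr17:46016993-46032369, minus strand), had 60.4, 94.6 and 52.9 CPM in heterozygous and 84.1, 151 and 304 CPM in LOH libraries. The groups overlapped, since LOH library 6 lay below heterozygous library 23. The log2 fold change was 1.37 ± 0.48 (adjusted p = 0.131), and it was 0.76 without LOH library 34. Adm, the precursor of the vasodilator adrenomedullin (chr7:110627661-110629820, plus strand), was rare, with 0.434, 3.19 and 0.835 CPM (13, 43 and 25 counts) in heterozygous and 7.57, 7.55 and 5.40 CPM (130, 200 and 116 counts) in LOH libraries. Its groups did not overlap, and the fold change was 2.25 ± 0.71 (adjusted p = 0.108).

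Car9 was the 1 gene of the 14 with a lower level in LOH. It encodes carbonic anhydrase IX, a surface enzyme that helps cells shed acid and is widely used as a marker of hypoxia (chr4:43506966-43513729, plus strand, overlapping Gm12454 on the opposite strand). Car9 had 95.7, 115 and 60.2 CPM in heterozygous and 6.29, 3.96 and 33.9 CPM in LOH libraries, so the groups did not overlap. LOH libraries 6 and 23 were far below line 34, and within lines the log2 ratio was -3.91, -4.83 and -0.83. The log2 fold change of -2.62 ± 0.80 had an adjusted p of 0.101 in edgeR and of 0.147 with the line as a block, and did not pass. Without LOH library 34 it was -4.15 with an adjusted p of 0.0149, and over the alternatives the adjusted p ran from 0.00289 to 0.368. Car9 also passed as lower without a filter, with DESeq2, and with limma on log2(TPM + 1), on log2(TPM + 0.1) and with library medians removed. In the same order 297 of 27027, 844 of 15993, 1631, 1486 and 302 of 11918 genes were called lower. Car9 did not pass with RLE or upper quartile scaling, with the other filters or with any other library or line left out. The windows of Car9 and Slc16a3 printed above both hold ACGTG close to the RefSeq start used. These matches lie inside the annotated genes, downstream of the gene starts. For Slc16a3 the RefSeq start lies 587 bases from the start of its most abundant transcript. Their fold changes had opposite signs, and whether the motif plays a part in either was not tested.

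Mxi1 (chr19:53310518-53375810, plus strand), the 1 HIF pathway gene that rose, had 16.2, 24.5 and 19.0 CPM in heterozygous and 32.9, 54.2 and 54.0 CPM in LOH libraries, with no overlap. Group means were 19.9 ± 4.21 and 47.0 ± 12.2 CPM (SD, n = 3), and the log2 fold change of 1.24 ± 0.27 had an adjusted p of 0.0484 in edgeR and of 0.0852 with the line as a block. Within lines the log2 ratio was 1.02, 1.14 and 1.502. Its transcripts differed. The most abundant one had a log2 fold change of 1.94 ± 0.57 (SE, adjusted p = 0.222, edgeR over transcripts). The next, at a mean TPM of 2.70 against 3.59, had 0.41 ± 0.36 (adjusted p = 0.686) and was lower in LOH in line 34 (log2 ratio -0.71). The call was lost without LOH library 23 (0.0992) or 34 (0.0851), without heterozygous library 6, 23 or 34 (0.176, 0.139 and 0.224), and with upper quartile scaling (0.0507). These are adjusted p-values, and over the alternatives they ran from 0.00269 to 0.303. The call was also lost without line 23 or 34, in fits that called no gene at all. It was lost as well with limma on log2(TPM + 0.1) and with limma after library medians were removed. Mxi1 overlaps AC133451.2 and Gm10197 on the opposite strand.

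The other targets were higher in LOH without passing the test. P4ha1, a collagen prolyl hydroxylase (chr10:59323296-59373304, plus strand), had 28.2, 38.0 and 25.04 CPM in heterozygous and 42.7, 70.3 and 104 CPM in LOH libraries, groups that did not overlap (log2 fold change 1.25 ± 0.35, adjusted p = 0.0827). Bnip3l, which marks mitochondria for removal (chr14:66985239-67008877, minus strand), had 85.3, 126 and 79.1 CPM in heterozygous and 116, 212 and 209.5 CPM in LOH libraries, groups that did overlap (adjusted p = 0.129). Its relative Bnip3, Ndrg1 (a stress-induced gene of epithelia), Ankrd37, Ddit4 (an inhibitor of mTOR signalling) and P4ha2 had log2 fold changes of 1.74, 1.95, 1.48, 1.12 and 0.89, with adjusted p-values from 0.135 to 0.268. Without line 34 the fold change of Ddit4 was 0.36, and without LOH library 23 that of P4ha2 was 0.43. With the line as a block the adjusted p of Ndrg1 was 0.0555. Without LOH library 6 the adjusted p was 0.0231 for P4ha1, 0.0356 for Bnip3l and 0.0390 for Vegfa, which over the alternatives ran from 0.0153 to 0.415, 0.0356 to 0.542 and 0.0390 to 0.569. Groups without overlap were found for 6 of 14 HIF pathway genes in the higher and for 1 in the lower direction in LOH, against 16.4% and 16.5% of all genes tested.

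**Figure D4:**
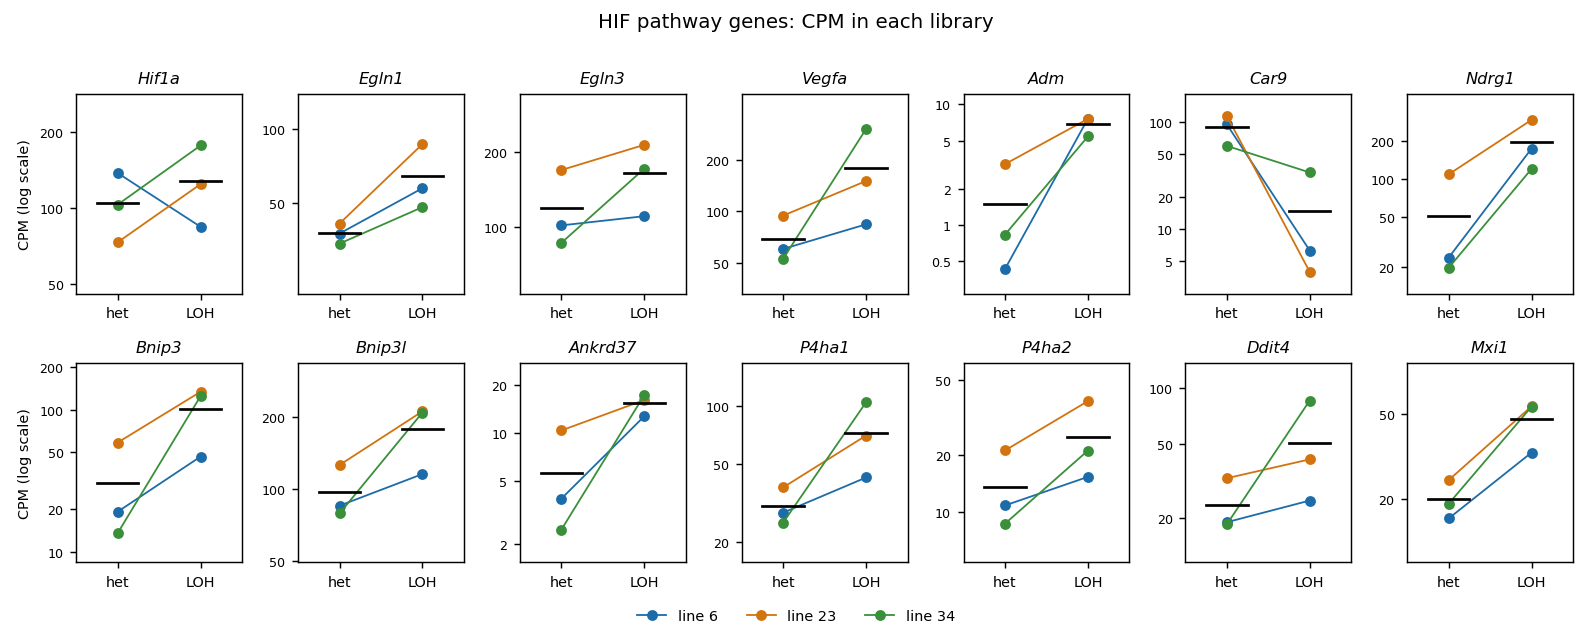
CPM on a log axis for the 14 HIF pathway genes, with 1 point per library, thin lines joining the 2 libraries of an organoid line and black bars at the mean of each group. Lines rise from heterozygous to LOH in most panels, fall for Car9, and cross for Hif1a.

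Line 34 showed the widest difference. Median log2 ratios over the HIF pathway genes were 0.55, 0.82 and 1.78, and over the glycolysis genes 0.22, 0.10 and 0.66. Over all genes tested they were -0.01, 0.03 and 0.06. Line 34 had the highest ratio of the 3 lines for 27 of the 33 genes (81.8%), against 29.3% of all genes tested. The same held for 6 of the 8 epithelial markers (75%, with a median ratio of 0.97 in line 34), 19 of 34 other HIF pathway genes (55.9%) and 4 of 21 other glycolysis genes (19%), so it was not shown to be particular to the 33. Heterozygous library 34, the denominator of that ratio, had the lowest level of the 6 libraries for 10 of 14 HIF pathway genes (71.4%, against 12.3% of all genes). The highest level was in LOH library 23 for 7 and in LOH library 34 for 5 of the 14. Without line 34 the median over the HIF pathway genes was 0.77 and that over the glycolysis genes 0.17.

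Signs across the 3 lines were counted for each list. All 3 lines had a ratio above 0 for 12 of 14 HIF pathway genes (85.7%) and for 8 of 19 glycolysis genes (42.1%), against 22.9% of all genes tested. A ratio below 0 in all 3 lines was found for Car9 and for Eno1, against 21.6% of all genes. Lines disagreed in sign for Hif1a in the HIF pathway and for 10 glycolysis genes, among them Slc2a1, Pkm and Ldha. No test of the difference between the lists was run.

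**Figure D5:**
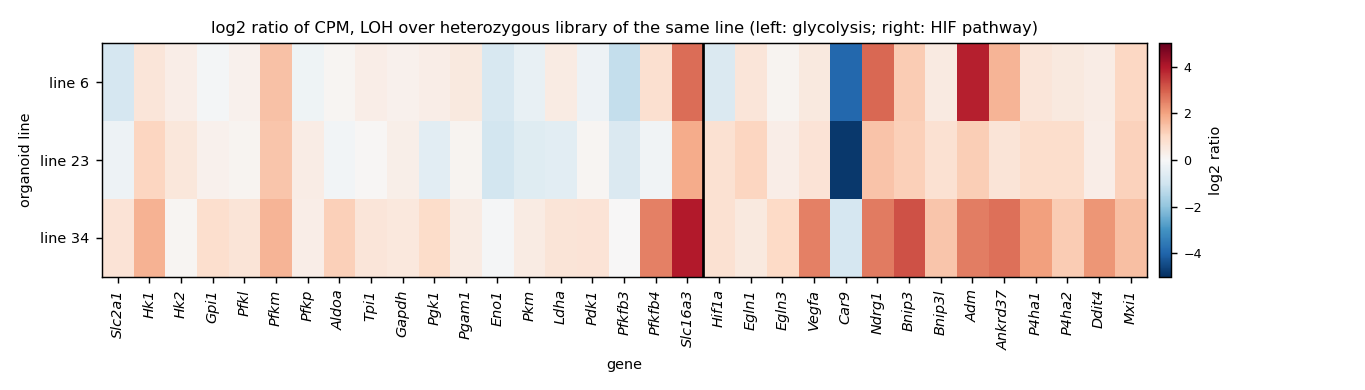
Log2 ratio of CPM, LOH over heterozygous library of the same organoid line, for each gene (columns, glycolysis left of the black bar, HIF pathway right) and line (rows), with red above and blue below 0. Line 34 has the most intense red, Car9 is blue in all 3 lines, and Slc2a1, Pkm and Hif1a change colour between lines.

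Further genes of the same pathways were counted from wider lists. Of 30 other glycolysis genes 21 could be tested, 0 rose and 1 fell, against 3.55% and 1.66% of all genes tested, so this count is near the background. The median log2 fold change was 0.15, and 7 had an unadjusted p under 0.05, against 25.3% of all genes. DESeq2 called 2 of the 20 it tested, against 14.1% of all genes. The gene that fell was Adpgk, an ADP-dependent glucokinase, from 37.8 ± 1.14 to 17.6 ± 3.69 CPM (SD, n = 3, log2 fold change -1.10 ± 0.21, adjusted p = 0.0361, 0.106 with the line as a block and 0.0545 without LOH library 23, in a range of 0.000804 to 0.211). All 7 genes of the pentose phosphate pathway, which draws glucose 6-phosphate off for NADPH and ribose, could be tested. Of these 2 fell and none rose (edgeR), where 1.66% of all genes tested fell. An unadjusted p under 0.05 was found for 4, all lower in LOH, against 25.3% of all genes in either direction, and the median was -0.57.

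The pair that fell were the enzymes that make NADPH. G6pdx had 206, 223 and 211 CPM in heterozygous and 124, 93.6 and 106 CPM in LOH libraries, and Pgd 316, 250.4 and 224 CPM in heterozygous and 118, 147 and 123 CPM in LOH libraries. In both genes each LOH library lay below each heterozygous one. Log2 fold changes were -0.98 ± 0.18 (adjusted p = 0.0313) and -1.03 ± 0.20 (adjusted p = 0.0378), and 0.107 and 0.115 were their adjusted p-values with the line as a block. Without LOH library 23 these were 0.0572 and 0.0559, and without LOH library 34 that of Pgd was 0.0652, in ranges of 0.000209 to 0.221 and 0.000325 to 0.201 over the alternatives. Tkt and Rpia, of the branch that rearranges sugars, had -0.57 ± 0.17 (adjusted p = 0.1004) and -0.76 ± 0.21 (adjusted p = 0.0787).

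Of 36 other HIF pathway genes 34 could be tested, 2 rose and 2 fell, against 3.55% and 1.66% of all genes tested, with a median log2 fold change of 0.40. Epas1, the alpha subunit HIF2A, rose from 14.2 ± 2.79 to 37.7 ± 6.80 CPM (SD, n = 3, adjusted p = 0.0267, edgeR), and Stc2, a secreted glycoprotein, from 51.7 ± 12.7 to 114 ± 21.4 CPM (adjusted p = 0.0477). Igfbp3, a binding protein of insulin-like growth factors, fell from 46.2 ± 2.09 to 6.64 ± 5.37 CPM (adjusted p = 0.0459). Arnt2, a beta subunit, fell from 2.72 ± 0.86 CPM to levels near the floor of 3 counts (adjusted p = 0.0164). LOH libraries 6, 23 and 34 held 3, 6 and 2 counts, and in them 3 counts correspond to 0.175, 0.113 and 0.140 CPM. With the line as a block, adjusted p-values were 0.0922, 0.115, 0.0744 and 0.0515 in the same order, so none of these calls stood. Without LOH library 23 the adjusted p was 0.0507 for Epas1, 0.0686 for Stc2 and 0.112 for Igfbp3, and without LOH library 34 it was 0.0784 for Stc2. Without any 1 heterozygous library no gene of these lists passed, and over all alternatives the adjusted p-values of the 4 genes lay between 2.08e-07 and 0.295. With the block, 10 of the 34 genes had an unadjusted p under 0.05, against 20% of all genes.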

How the data were processed

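The series holds stranded total RNA libraries of 6 organoid cultures, 3 heterozygous and 3 LOH, grouped by their titles, which also give the organoid line (6, 23 or 34). Part of the genotype that all libraries share is not reported here. The authors deposited expected counts, estimated per gene and transcript by RSEM 1.3.0 after alignment with STAR 2.5.2b to GRCm38.p5, per the submitters' processing notes, which also name FastQC 0.11.5 and DESeq2 1.44.0. Genes were those of GENCODE mouse release 16, as the names of the deposited files say. TPM values are the authors' abundances scaled for length and depth. The deposited normalized tables hold a signal (counts divided by a size factor), used here only for gene names and for the protein-coding set. Strand setting and read filters are not given in the sources used here.

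Expected counts were rounded, and filterByExpr kept 14537 of 53379 genes. The main test was edgeR's quasi-likelihood F test (edgeR 4.0.16, R 4.3.3, TMM scaling). It was two-sided, p-values were adjusted by Benjamini-Hochberg over all genes kept, and the threshold was 0.05. A standard error is the fold change on the log2 scale over the root of F. CPM values use TMM sizes, and log2 ratios within lines a prior count of 2. The test ran without a block, since no label states a paired model, and again with the organoid line as a block. Libraries of 1 line share a number in their titles, which is where the pairing comes from. Deviations of the libraries from their group means were also correlated across genes, at -0.30, 0.01 and 0.29 within lines 6, 23 and 34 and at -0.39 to 0.30 between lines. Transcripts were tested in the same way, and the Pkm share by exact permutation. Depth ran from 13680458 to 27917277 expected counts per library, and intervals and floors cover counting error only. Coordinates and Pkm exons came from GENCODE mouse release 21 (GRCm38), which held 53274 of the 53379 gene identifiers, and promoter sequences from RefSeq (GRCm38.p6). A symbol held by several genes was taken as the gene with the highest count.

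The members and lists were chosen with earlier results of these data known, so no list was tested as a set. Values per library are given for Slc2a1, Hk2, Pkm, Ldha, Hif1a and Vegfa, for members with an adjusted p under 0.05 with or without the block, and for the 6 smallest p-values of each list; Eno1 was added after its values were seen. Of the other lists, genes past the threshold and forms of the same enzyme are named, and Tkt and Rpia were added after their values were seen. Alternatives were scaling by RLE or upper quartile, other filters (none, 10 or more counts in each library, protein-coding genes), the block, leaving out a library or a line, DESeq2 1.42.0, and limma 3.58.1 on log2(TPM + 1) or log2(TPM + 0.1), where genes needed a TPM of 1 or more in 3 libraries. Chosen after seeing the data were limma with library medians removed and leaving out each library for the shares of Slc16a3 and Pfkm. Python 3.11.15, pandas 2.3.3, numpy 2.4.6, scipy 1.17.1 and matplotlib 3.10.9 made tables and figures.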

Additional observations from a re-analysis of the deposited data

Results flagged for a closer look

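The log2 ratio of LOH over heterozygous had both signs among the 3 organoid lines for 13 of 49 genes and lists compared in this way. With 1 library per genotype and line, the difference between lines was not tested. In lines 6, 23 and 34 the ratio of Slc2a1 was -0.84, -0.27 and 0.70, a spread of 1.54 from lowest to highest. Hif1a had -0.71, 0.77 and 0.78 (spread 1.49), being the only HIF pathway gene of the 14 with both signs. Pfkfb4 had 0.81, -0.17 and 2.53 (spread 2.70), the widest of the 13. For Pkm the ratios were -0.36, -0.59 and 0.42 (spread 1.01), and for Ldha 0.40, -0.53 and 0.66 (spread 1.18). The spread was 0.94 for Gpi1, 0.59 for Pfkp, 1.32 for Aldoa, 1.45 for Pgk1, 0.95 for Pdk1 and 1.21 for Pfkfb3. In each of the 11 glycolysis and HIF genes named here the highest ratio was in line 34, except Pfkp. Slc16a1 had 0.59, -0.43 and 0.19 (spread 1.01), and the median over the other glycolysis genes was 0.44, -0.18 and -0.07 (spread 0.62).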

How the results depend on the processing

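The number of genes past the threshold among all genes depended most on the libraries used. It was 757 in the reported test, 213 with the organoid line as a block, 2262 with DESeq2, 1911 with limma on log2(TPM + 1) and 1753 on log2(TPM + 0.1), and 0 to 2449 when 1 library or 1 line was left out. It was 0 without any heterozygous library and without line 23 or 34, where 2097 to 2966 genes still had an unadjusted p under 0.05, 2449 without LOH library 6, 451 without LOH library 23 and 1422 without line 6. In TPM 280 of the calls were higher and 1631 lower in LOH (with 0.1 added, 267 and 1486), against 516 and 241 in counts, and with library medians removed 389 and 302. The block paired the libraries of a line, and it took the calls to 0 among the glycolysis genes, 0 among the HIF pathway genes and 0, 0 and 0 in the other lists. Each call of a named gene was lost with the block. The Pkm share differed by 5.62 points with or without it, which pairing cannot change, since each line has 1 library per group. Called glycolysis genes were 0 to 3 with a library or line left out (0 without a heterozygous library or without line 23 or 34, and 1 without LOH library 23 or 34 or line 6), and called HIF pathway genes 0 to 4 (4 without LOH library 6, 0 without LOH library 23, any heterozygous library or line 23 or 34). HIF pathway calls were 0 with upper quartile scaling, 2 without a filter, 8 with DESeq2 and 2 on log2(TPM + 1). Other glycolysis genes had 2 calls with DESeq2, 5 and 4 on the 2 TPM scales and 0 to 3 with a library or line left out. Pentose phosphate genes had 4, 4, 4 and 0 to 3 in the same order. Other HIF pathway genes had 7, 1, 1 and 0 to 8, and 2 with library medians removed.

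On log2(TPM + 1), where the median of all genes moved by -0.42, medians changed sign for the glycolysis genes (-0.075, and -0.0751 with 0.1 added), the other glycolysis genes (-0.32 and -0.51) and the other HIF pathway genes (-0.0397 and -0.0496). The other glycolysis genes also changed sign with at least 10 counts in every library (-0.0451) and without line 6, over leave-out values of -0.0785 to 0.30. Single genes that changed sign in TPM had, with 1 and with 0.1 added, Hk2 -0.0545 and -0.0611, Gpi1 -0.12 and -0.12, Pfkl -0.0155 and -0.0155, Pfkp -0.21 and -0.22, Tpi1 -0.075 and -0.0751, Gapdh -0.0663 and -0.0663, Pgk1 -0.16 and -0.16, Pgam1 -0.0454 and -0.0455, Ldha -0.21 and -0.21, Pdk1 -0.27 and -0.28, Slc16a1 -0.27 and -0.27. Slc2a1 became 0.00071 with at least 10 counts in every library. None of these genes had passed the test in counts. When 1 library or 1 line was left out, both signs were reached by Aldoa (-0.0318 to 0.74), Hif1a (-0.0193 to 0.74), Ldha (-0.0719 to 0.54), Pdk1 (-0.0463 to 0.48), Pfkp (-0.23 to 0.49), Pgk1 (-0.17 to 0.65), Pkm (-0.50 to 0.11), Slc16a1 (-0.11 to 0.38) and Slc2a1 (-0.52 to 0.23). The fold change of Slc16a3 stayed within 2.25 to 3.24, that of Pfkm within 1.401 to 1.59 and that of Mxi1 within 1.09 to 1.41. The Pkm share differed by 5.25 to 6.20 points, and the shares of Slc16a3 and Pfkm by 35.3 to 45.1 and 5.42 to 7.38 points. The causes of these shifts were not tested. Of the genes given with values, Adm and Arnt2 lay closest to the floor of 3 counts.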

Other observations

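Shares of minor forms at other steps are given here as TPM per library, with no test. They did not all move the same way. Aldoc, the brain form of aldolase, took 2.89%, 4.49% and 2.75% of the aldolase TPM in the heterozygous libraries of lines 6, 23 and 34 and 3.78%, 8.36% and 5.28% in the LOH libraries. Eno3, the muscle enolase, took 0.132%, 0.171% and 0.203% of the enolase TPM in heterozygous and 0.463%, 0.65% and 0.535% in LOH libraries, so each LOH library lay above each heterozygous one at a level below 1%. Pdk2, a pyruvate dehydrogenase kinase, took 2.88%, 1.73% and 2.51% in heterozygous and 6.70%, 4.99% and 3.17% in LOH libraries at its step, where Pdk1 took most in every library. Among the alpha subunits of HIF, Hif1a held 88.0%, 82.6% and 90.2% in heterozygous and 73.2%, 78.4% and 82.4% in LOH libraries. Epas1 held 9.51%, 13.3% and 8.82% in heterozygous and 23.9%, 16.8% and 15.9% in LOH libraries. Other minor forms had a lower mean share in LOH. Egln2, a prolyl hydroxylase, took 27.9%, 21.9% and 34.4% at its step in heterozygous and 26.3%, 13.5% and 22.6% in LOH libraries. Hkdc1 took 7.92%, 8.29% and 4.53% of the hexokinase TPM in heterozygous and 1.42%, 9.26% and 0.885% in LOH libraries. Pfkfb1 took 10.1%, 11.5% and 11.6% at its step in heterozygous and 13.9%, 2.80% and 3.64% in LOH libraries.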
